A study of Mus musculus with 16 samples.

Results

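The response described here is the change in gene expression that went with morphine in both genotypes of the study: the mean of the morphine effect in wild-type mice and the morphine effect in mice labelled as lacking RGSz1, a regulator of G protein signalling encoded by Rgs20. All 16 RNA-sequencing libraries of the series entered it, 8 from morphine-treated and 8 from naive mice. Among 18111 genes with enough counts to test, 3089 passed an adjusted p of 0.05 for the mean effect, and the 3037 of these that moved the same way in both genotypes are called shared genes below.

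The tissue was the periaqueductal gray, a midbrain region of the descending pain control pathway, taken as punches from male mice, and each library pooled 2 animals. The 4 groups held 4 libraries each: wild-type naive, wild-type morphine, knockout-labelled naive and knockout-labelled morphine. The series is about morphine tolerance. The comparison group was naive, so an effect of morphine and an effect of injection or handling cannot be told apart, and no dose or time point enters the values below. P-values measure the spread between these pooled libraries.

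Library totals ran from 19.1 M to 55.0 M reads counted in genes (M, mega), and the group medians were 45.3 M for wild-type naive, 44.3 M for knockout-labelled naive, 33.3 M for wild-type morphine and 25.8 M for knockout-labelled morphine. Morphine libraries were shallower by the group medians. Rgs20 itself lay between 11.4 and 14.4 CPM (counts scaled to a common library size) over all 16 libraries, and its gene-level count did not separate the libraries labelled knockout from the wild type; which part of the gene was deleted is not given in the sources used here. In 1 wild-type naive and 1 knockout-labelled morphine library, genes of meningeal fibroblasts stood far above the other libraries, with summed levels of 2226 and 2199 CPM against group medians of 404 to 686, and a further knockout-labelled morphine library stood above the rest by less. None of those 12 marker genes was called in the mean effect. Their median log2 fold change was −1.24 in wild type and 1.05 in libraries labelled knockout, and 0 had the same sign in both. The mean of opposite changes cannot show whether this tissue affected other genes. The marker lists used name cell types and not the periaqueductal gray, so the dissected region was not checked by expression.

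Morphine acts on the mu opioid receptor, which couples to inhibitory G proteins and lowers cyclic AMP. With repeated dosing the cyclic AMP pathway is known to rebound, and transcription factors of the FOS and CREB families take part in the longer adaptation of neurons. Opioids also act on the hypothalamus, pituitary and adrenal gland, and circulating glucocorticoids switch on a well-known set of genes in brain through the glucocorticoid receptor, a nuclear receptor that binds DNA at palindromic response elements.

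The shared response was broad and mostly small. Of the 3037 shared genes (16.8% of genes tested), 1609 were higher with morphine (8.88%) and 1428 were lower (7.88%). Before the sign rule, 3089 genes were called (17.1% of those tested), 1634 higher (9.02%) and 1455 lower (8.03%). The mean change exceeded 1.5-fold for 293 shared genes, or 9.65%, and 2-fold for 90, of which 75 were higher and 15 lower. In 451 genes the 8 morphine libraries did not overlap the 8 naive libraries in CPM (2.49% of genes tested), 257 of them higher (1.42%) and 194 lower (1.07%). All 451 were called. Their equal sign in both genotypes follows from the lack of overlap and is no separate result. Adding the level of serotonin neuron markers, which moved with treatment, to the model left 499 genes called, 439 of them shared genes. As this covariate moved with treatment, a call lost in that model need not mean a smaller change. Reducing all libraries to the smallest total left 1925.

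**Figure D1:**
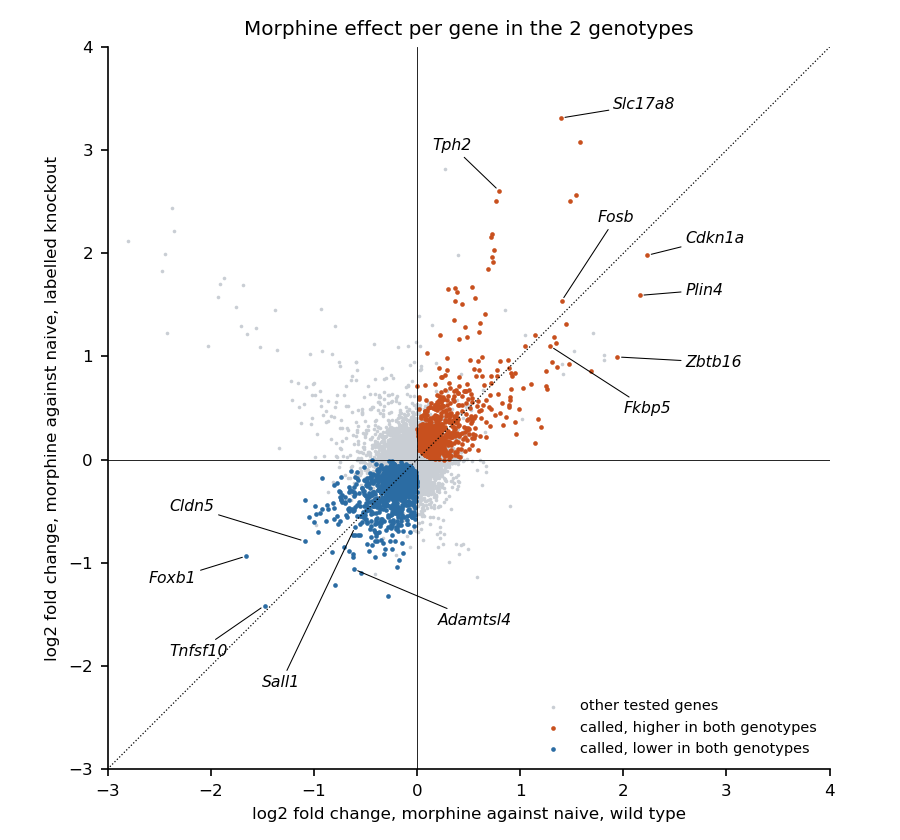
Log2 fold change of morphine against naive in wild type (x axis) and in libraries labelled knockout (y axis), 1 point per gene for the 13816 genes whose log2 CPM averaged 1 or more; 1 gene lies outside the axes, and the dotted line marks equal change. Orange and blue points are shared genes; Cdkn1a and Plin4 sit far out near the line, while Slc17a8 and Tph2 lie well above it and the grey points at upper left had opposite signs.

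The 2 genotypes contributed unequally to the calls. Tested alone, wild type gave 798 calls (4.41%), 424 higher (2.34%) and 374 lower (2.07%). The libraries labelled knockout gave 2082 (11.5%), 1026 higher (5.67%) and 1056 lower (5.83%). Of all tested genes, called or not, 61.9% had the same sign in both genotypes. Of the shared genes, 384 were called in both genotypes, 338 in wild type only, 1256 in libraries labelled knockout only and 1059 in neither. The absolute change was larger in the libraries labelled knockout for 62.6% of shared genes, against 54.1% of all genes tested. A call in one genotype and not in the other is no difference between them. The test of the difference itself, the interaction of genotype and morphine, called 0 genes with edgeR (smallest adjusted p 0.106), while 2200 genes (12.1%) had an unadjusted p under 0.05 and DESeq2 called 107. Among shared genes, 543 (17.9%) had an unadjusted interaction p under 0.05. For 2324 shared genes (76.5%) the 95% interval of the difference between genotypes lay within 0.5 on the log2 scale. That limit is wider than most of the mean changes, with medians of 0.14 for shared higher and −0.20 for shared lower genes. It therefore cannot show that a gene changed alike in both genotypes.

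The wild-type and knockout-labelled comparisons used no library in common, so each could be read in the other's samples. Both tests used the same estimate of each gene's spread, taken over all libraries, so their p-values are not fully independent. Of the 798 genes called in wild type, 738 (92.5%) had the same sign in the libraries labelled knockout, and 67.8% had in addition an unadjusted p under 0.05 there, against 20.1% of all genes tested. Of the 2082 genes called in libraries labelled knockout, 1787 (85.8%) had the same sign in wild type and 43.9% passed the same limit, against 16.4% of all genes. The mean centred log2 level of the wild-type genes, with lower genes counted negatively, ran from −0.31 to −0.22 in the naive and from 0.15 to 0.37 in the morphine libraries labelled knockout. The genes called in the knockout-labelled comparison ran from −0.22 to −0.13 in naive and from 0.16 to 0.20 in morphine wild-type libraries. Neither pair of ranges overlapped. Over all tested genes, which are no independent replicates, the log2 fold changes of the genotypes correlated weakly, with Pearson's r of 0.18 and Spearman's rho of 0.27. The calls that did not hold a sign were few: 52 called genes had opposite signs in the genotypes, led by Npy2r, a neuropeptide Y receptor (−0.051 in wild type, 0.76 in libraries labelled knockout), Arid5b (0.39 and −0.016) and the bradykinin receptor gene Bdkrb2 (−0.10 and 1.18), all on the log2 scale.

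Genes known to respond to glucocorticoids rose together. Of 44 tested members of 3 lists, 28 rose (63.6%, against 9.02% of all genes tested), 0 fell, and in 19 the morphine and naive libraries did not overlap. Their median log2 fold change was 0.42, against −0.0065 for all genes tested, and 24 were called higher in each genotype alone. The lists held by role as follows: 5 of 10 genes of the receptor and its feedback rose, 8 of 10 transcription factors, and 15 of 24 metabolic and signalling genes. With the serotonin marker level in the model these counts were 5, 6 and 13.

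The promoter of Sgk1, the kinase gene of the receptor and feedback list, is shown because it carries a complete glucocorticoid response element. The motif searched was AGAACA, 3 bases of any kind and TGTTCT, which reads the same on both strands, in RefSeq promoter windows of 300 bases (build GRCm38.p6), from 250 bases before to 50 after each transcript start. Of 32851 windows, 3 (0.00913%) held it. The risen glucocorticoid genes had 35 windows from 24 genes, and only 1 window, that of Sgk1, held it. The window of Sgk1 is chr10:21993640-21993939 on the plus strand, with the element in capitals, its first base 189 bases before the start; Sgk1 has 6 windows in the table.
Sgk1: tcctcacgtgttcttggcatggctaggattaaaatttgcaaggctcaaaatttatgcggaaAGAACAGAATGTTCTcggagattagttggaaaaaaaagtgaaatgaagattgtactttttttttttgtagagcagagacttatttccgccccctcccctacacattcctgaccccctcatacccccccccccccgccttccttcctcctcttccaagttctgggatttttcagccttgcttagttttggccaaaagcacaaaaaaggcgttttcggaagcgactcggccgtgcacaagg

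In the 8 naive libraries Sgk1 stood at 56.9 to 138 CPM (median 96.1), and in the 8 morphine libraries at 134 to 271 CPM (median 245). The ranges touched, with the lowest morphine library just under the highest naive library, and the log2 fold change was 1.24 ± 0.16 (SE), adjusted p = 0.000345. Fkbp5, a co-chaperone that lowers the receptor's affinity for its hormone, ran from 24.6 to 34.1 CPM (median 27.9) in naive libraries and from 53.1 to 76.0 CPM (median 65.0) in morphine libraries. All 8 morphine libraries lay above all 8 naive ones, and the log2 fold change was 1.20 ± 0.092 (SE), adjusted p = 3.42e-06. Tsc22d3, which encodes the leucine zipper protein GILZ, changed by 0.75 ± 0.079, Nfkbia, the inhibitor of NF-kappaB, by 0.76 ± 0.074, and Errfi1, a feedback inhibitor of the epidermal growth factor receptor, by 0.60 ± 0.055, each without overlap. Nr3c1, the receptor gene itself, had a log2 fold change of −0.13 ± 0.048 (SE), adjusted p = 0.0822, and did not pass.

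Among the transcription factors of the group Zbtb16 moved most. This zinc finger repressor was at 18.9 to 39.5 CPM (median 24.9) in naive and 44.5 to 91.6 CPM (median 80.0) in morphine libraries, with no overlap and a log2 fold change of 1.47 ± 0.15 (SE), adjusted p = 3.78e-05. Its change was 1.94 in wild type and 1.00 in libraries labelled knockout, a difference with an unadjusted p of 0.00643 that did not pass adjustment. Hif3a, a member of the hypoxia-inducible factor family, changed by 1.13 ± 0.13, Cebpd by 0.88 ± 0.11 and Klf15, a regulator of amino acid and lipid metabolism, by 0.52 ± 0.046, again without overlap. Klf9 (0.32 ± 0.043) and Per1 (0.39 ± 0.068) rose with overlapping ranges.

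In the metabolic and signalling list the gene with the smallest p was Cdkn1a, which encodes the cell cycle inhibitor p21. Cdkn1a stood at 6.00 to 10.3 CPM (median 7.00) in naive and 24.8 to 38.9 CPM (median 33.3) in morphine libraries, so that the lowest morphine library was above 2 times the highest naive one. Its log2 fold change was 2.11 ± 0.11 (SE), adjusted p = 7.95e-08, with 2.23 in wild type and 1.98 in libraries labelled knockout, and the 95% interval of the difference between genotypes ran from −0.73 to 0.22. Plin4, a coat protein of lipid droplets, was at 6.62 to 17.0 CPM (median 10.7) in naive and 21.7 to 51.5 CPM (median 45.5) in morphine libraries, a log2 fold change of 1.88 ± 0.23 (SE), adjusted p = 0.000223. Arrdc2, an arrestin-domain protein gene, changed by 1.20 ± 0.092, Mertk, a receptor for the uptake of dying cells, by 0.74 ± 0.071, and Ddit4, an inhibitor of the kinase complex mTORC1, by 0.71 ± 0.067. None of the 5 overlapped between treatments. Of the 28 risen genes, 19 had a larger change in wild type than in the libraries labelled knockout.

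**Figure D2:**
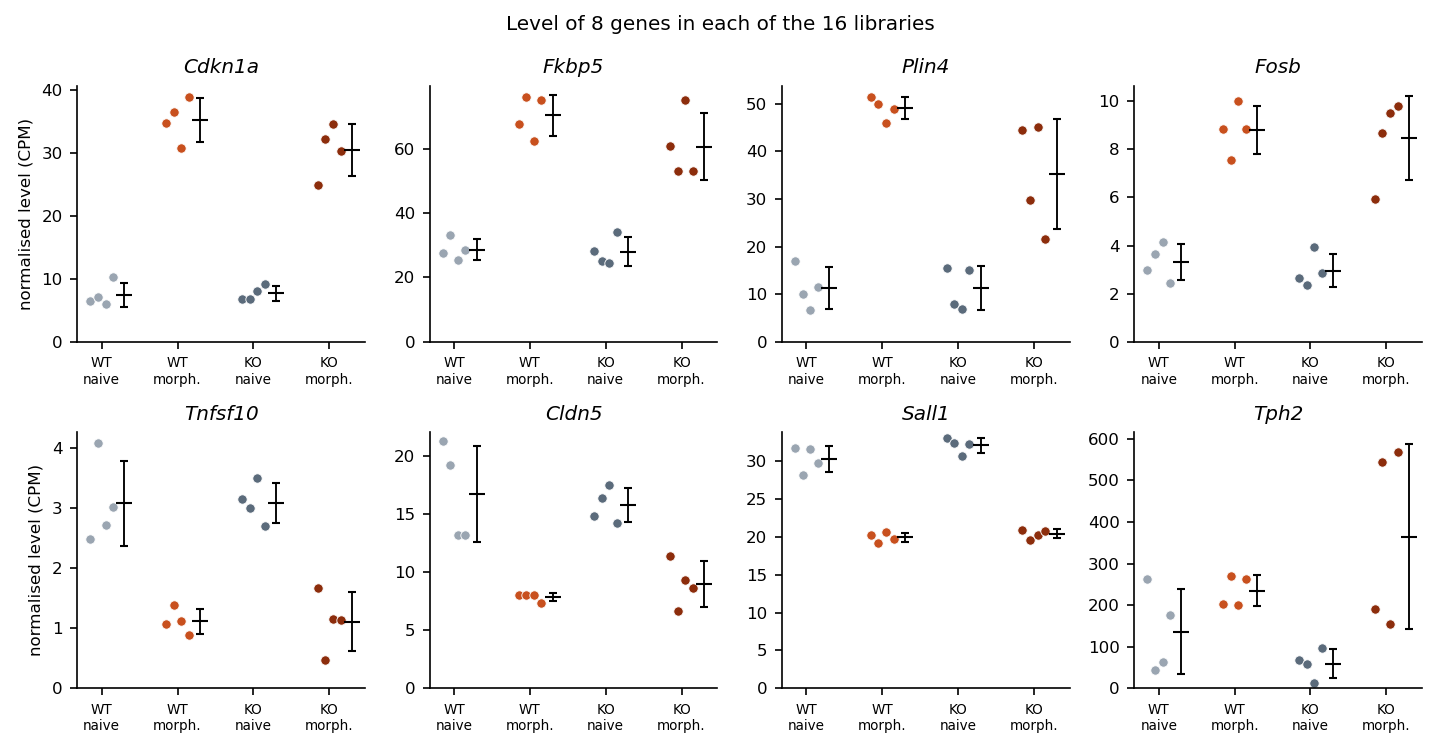
CPM (y axis, from 0) of 8 genes in each library by group; bars give the mean and SD of 4 libraries. Cdkn1a, Fkbp5, Plin4 and Fosb lie higher in every morphine library and Tnfsf10, Cldn5 and Sall1 lower, while the Tph2 ranges overlap, from 13.7 to 262 in naive and 154 to 568 in morphine libraries.

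Immediate early genes, which neurons switch on after stimulation, were mixed. Of 42 tested members of 2 lists, 17 rose (9.02% of all genes tested did) and 5 fell (8.03%), and 9 did not overlap between treatments (2.49%). With the serotonin marker level in the model 7 transcription factors rose, and 4 effector genes rose and 2 fell. Fosb, whose stable protein form accumulates with repeated stimulation, was at 2.34 to 4.15 CPM (median 2.94) in naive and 5.95 to 9.99 CPM (median 8.85) in morphine libraries, a log2 fold change of 1.47 ± 0.13 (SE), adjusted p = 3.16e-06. Every morphine library exceeded every naive library. Fosl2, a further FOS family gene, changed by 1.05 ± 0.14, and Maff, a small MAF transcription factor, by 0.92 ± 0.11. Gadd45g, a growth arrest gene, changed by 0.82 ± 0.073 and Crem, a cyclic AMP-responsive modulator of transcription, by 0.33 ± 0.044; Maff, Gadd45g and Crem did not overlap. The fallen members included Spry2 and Dusp6, feedback inhibitors of the mitogen-activated kinase pathway, at −0.40 ± 0.042 and −0.32 ± 0.05. Arc and Junb, named here after their values were seen, were also lower, at −0.42 ± 0.077 and −0.45 ± 0.12.

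The promoter of Maff is shown for its complete cyclic AMP response element. The palindrome TGACGTCA contains the half-site TGACG, which was searched on both strands as well. The full element was in 1.79% of all 32851 windows, 2.74% of those of tested genes, 3.59% of those of shared higher genes and 1.41% of those of shared lower genes. The half-site was in 20.8%, 28.3%, 34.9% and 21.8% in the same order, and in 14 of 25 windows (56%) of the risen immediate early genes, Fosb, Fos and Nr4a3 among them. Those 25 windows came from 13 genes, and 2 of the windows, of Maff and Pcsk1, held the full element. Shared higher genes were also more strongly expressed, with a median of 62.0 CPM against 15.7 for all genes tested. The Maff window is chr15:79347270-79347569 on the plus strand, with the element in capitals starting 29 bases before the start; it is 1 of 3 windows of that gene.
Maff: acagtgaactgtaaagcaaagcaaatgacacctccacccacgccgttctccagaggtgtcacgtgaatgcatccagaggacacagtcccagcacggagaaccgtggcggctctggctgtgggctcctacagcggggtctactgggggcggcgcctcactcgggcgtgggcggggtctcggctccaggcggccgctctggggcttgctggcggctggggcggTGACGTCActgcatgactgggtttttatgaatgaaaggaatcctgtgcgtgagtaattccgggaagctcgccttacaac

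Protein folding genes of the endoplasmic reticulum rose by small amounts. Of 15 chaperones and folding enzymes, 11 were called higher (9.02% of all genes tested were) and 0 lower, with a median log2 fold change of 0.13. All 15 had the same sign in both genotypes. In wild type alone 1 was called and in the libraries labelled knockout 7, and 0 of the 11 had the larger change in wild type. When any 1 of 5 libraries was left out (wild-type naive 2 or 3, knockout-labelled naive 1 or 4, knockout-labelled morphine 2) 7 were called. With the serotonin marker level in the model 0 were called, while the median log2 fold change was 0.11. Hspa5, the chief chaperone BiP, was at 267 to 361 CPM (median 285) in naive and 321 to 377 CPM (median 357) in morphine libraries, a log2 fold change of 0.29 ± 0.052 (SE), adjusted p = 0.00152. Those ranges overlapped. Canx, the lectin chaperone calnexin, changed by only 0.13 ± 0.024 yet its ranges did not overlap, and Pdia6, a disulfide isomerase gene, changed by 0.19 ± 0.034. Of 15 sensors and outputs of the stress response 4 rose and 1 fell (17.1% of all genes tested were called). The 5 calls became 3 when any 1 of 3 libraries was left out (wild-type naive 3, knockout-labelled naive 1 or 4) and 1 with the serotonin marker level in the model. Those that rose included Xbp1, a transcription factor of that response (0.22 ± 0.037), and Herpud1, a factor in the degradation of misfolded proteins (0.19 ± 0.029). Derl3, also of that degradation pathway, fell (−0.41 ± 0.11).

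These genes are shown together because several carry the endoplasmic reticulum stress element, CCAAT, 9 bases of any kind and CCACG, in their promoter windows. The element, searched on both strands, was in 39 of 32851 windows (0.119%), in 7 of 1615 windows of shared higher genes and in 2 of 1419 windows of shared lower genes. Of the 14 risen genes of both lists with a window, 6 held it: Calr, Canx, Dnajc3, Hsp90b1, Hspa5 and Pdia6. The fallen gene Derl3 held it too. Each site is written in the direction of the element with 10 bases on each side, the CCAAT and CCACG ends in capitals, and the brackets give its RefSeq coordinates (GRCm38.p6) and how far the site's 5′ end on the gene's strand lies before the start.
Calr (chr8:84847065-84847103, 162 bases before): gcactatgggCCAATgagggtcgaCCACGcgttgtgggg
Canx (chr11:50325790-50325828, 145 bases before): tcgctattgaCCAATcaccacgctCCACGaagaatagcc
Derl3 (chr10:75893232-75893270, 156 bases before): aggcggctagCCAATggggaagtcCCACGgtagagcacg
Dnajc3 (chr14:118937817-118937855, 105 bases before): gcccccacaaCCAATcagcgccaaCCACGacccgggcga
Hsp90b1 (chr10:86705523-86705561, 107 bases before): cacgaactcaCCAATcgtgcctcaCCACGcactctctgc
Hsp90b1 (chr10:86705628-86705666, 212 bases before): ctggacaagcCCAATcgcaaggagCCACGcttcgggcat
Hspa5 (chr2:34772015-34772053, 65 bases before): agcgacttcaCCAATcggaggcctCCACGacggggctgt
Pdia6 (chr12:17266481-17266519, 98 bases before): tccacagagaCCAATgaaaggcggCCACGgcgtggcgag

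Clock genes changed in both directions. Of 22 tested, 3 rose and 4 fell, against 17.1% of all genes tested called in either direction. With the serotonin marker level in the model 1 rose and 2 fell, and Dbp and Per1 were not called. The transcriptional repressor Nr1d1 (REV-ERBalpha) fell and was at 69.1 to 85.1 CPM (median 78.7) in naive and 51.6 to 62.1 CPM (median 56.1) in morphine libraries, a log2 fold change of −0.47 ± 0.047 (SE), adjusted p = 6.94e-06, with no overlap. Bhlhe40, another repressor, changed by −0.31 ± 0.033, and Dbp, an output factor of the clock, by −0.32 ± 0.06, while Per1 rose. The hour at which tissue was taken is not given in the sources used here, and its part in these values was not tested.

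Of 8 opioid receptor and peptide genes 2 were called, Pdyn and Penk, both higher, with 0 called in wild type alone. Of all genes tested 17.1% were called, so little can be read from this count. Pdyn, the dynorphin precursor, stood at 3.20 to 6.64 CPM (median 4.20) in naive and 6.13 to 14.7 CPM (median 8.51) in morphine libraries, a log2 fold change of 0.92 ± 0.19 (SE), adjusted p = 0.00446. Penk, the enkephalin precursor, stood at 80.7 to 103 CPM (median 88.2) and 95.8 to 118 CPM (median 105), with 0.25 ± 0.045 (SE), adjusted p = 0.00145. Both ranges overlapped slightly. Neither was called with the serotonin marker level in the model, at 0.31 and 0.23. Oprm1, the mu opioid receptor gene and the target of morphine, had a log2 fold change of −0.017 ± 0.066 with a 95% interval of −0.15 to 0.12; Oprk1 (kappa) had 0.15 ± 0.076 and the nociceptin receptor gene Oprl1 0.075 ± 0.026. Of 47 genes of opioid receptor signalling 12 rose (9.02% of all genes tested did) and 3 fell (8.03%), all by less than 1.5-fold. In wild type alone 2 rose, and with the serotonin marker level in the model 2 rose and 1 fell. The called genes included Pde1a, a cyclic nucleotide phosphodiesterase gene, at 0.41 ± 0.057 and Prkar2b, a regulatory subunit of protein kinase A, at 0.16 ± 0.033. Of 17 regulators of G protein signalling 3 were called, a share near the 17.1% of all genes tested: Rgs2 rose (0.29 ± 0.037, no overlap), Rgs9 rose (0.14 ± 0.046) and Rgs6 fell (−0.15 ± 0.047). Rgs20 had −0.018 ± 0.051. Rgs9 and Rgs6 each lost the call in 9 of the 16 fits that left out 1 library.

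Genes of microglia, the immune cells of brain, fell together. Of 18 markers 13 were called lower (8.03% of all genes tested were) and 0 higher, with a median log2 fold change of −0.30, and the summed level ran from 344 to 405 CPM in naive and from 297 to 339 CPM in morphine libraries, without overlap. In bulk tissue, fewer cells of a type and less RNA per cell cannot be told apart. Sall1, a transcription factor that keeps microglial identity, had the smallest p of any gene. It stood at 28.1 to 33.1 CPM (median 31.6) in naive and 19.2 to 20.97 CPM (median 20.2) in morphine libraries, a log2 fold change of −0.62 ± 0.032 (SE), adjusted p = 2.26e-09, with separate values for each genotype (−0.60 in wild type, −0.65 in libraries labelled knockout). Cx3cr1, the fractalkine receptor gene, changed by −0.55 ± 0.047, and Gpr34 and Laptm5 also fell without overlap. With the serotonin marker level in the model 4 of the 18 were called, and the median was −0.20.

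Not every gene known from these cells fell. Nrros, Tlr7 and Itgad, which are expressed in microglia or macrophages and were named after their values were seen, were higher in every morphine library, with log2 fold changes of 1.26 ± 0.076, 0.87 ± 0.085 and 1.45 ± 0.14. Nrros, which encodes a membrane partner of latent transforming growth factor beta, was at 4.13 to 5.75 CPM (median 5.18) in naive and 9.90 to 14.1 CPM (median 12.3) in morphine libraries.

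Endothelial genes fell as well, 8 of 20 lower (8.03% of all genes tested were) and 0 higher, with a median of −0.21. Unlike the microglial sum, their summed level overlapped, at 273 to 352 CPM in naive and 232 to 319 CPM in morphine libraries. Knockout-labelled morphine library 3, which was also high in meningeal genes, had a mean centred log2 level of 0.16, above several naive libraries. Without that library 11 were called. With the serotonin marker level in the model 3 were called, and the median was −0.26. Cldn5, the main tight junction claudin of the blood-brain barrier, stood at 13.2 to 21.3 CPM (median 15.6) in naive and 6.66 to 11.4 CPM (median 8.06) in morphine libraries, a log2 fold change of −0.94 ± 0.12 (SE), adjusted p = 8.13e-05. Kdr, the receptor for vascular endothelial growth factor, changed by −0.83 ± 0.091, and its ligand gene Vegfa by −0.29 ± 0.037. Cldn5 and Kdr did not overlap, whereas Pecam1 and Esam, general endothelial markers listed for the same cells, were not called. Of 5 red blood cell genes 2 were lower, and their part in the endothelial result was not tested.

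Mature oligodendrocyte genes were lower in 9 of 19 (8.03% of all genes tested were), with a median of −0.26, but the genotypes differed in value: the median was 0.01 in wild type and −0.53 in the libraries labelled knockout. In wild type alone 2 were called lower, Erbb3 and Adamts4, and in the libraries labelled knockout 13. In 17 of the 19 the interaction had an unadjusted p under 0.05, and none passed adjustment. Of the 9, 8 had the same sign in both genotypes, the exception being Ugt8a. Without wild-type naive library 2, the lowest of its group, 15 were called. The oligodendrocyte precursor list was mixed. Of its 12 genes 3 were lower and 1 higher (17.1% of all genes tested were called). Their median was −0.081, and 6 had the same sign in both genotypes. Without wild-type morphine library 1 or 2 or knockout-labelled morphine library 2, 2 were called. Sox10, a lineage factor and the only gene of that list without overlap, fell in both genotypes (−0.65 in wild type, −0.89 in libraries labelled knockout). Sox10 was at 52.3 to 82.4 CPM (median 69.8) in naive and 35.2 to 47.1 CPM (median 39.3) in morphine libraries. Erbb3, a neuregulin receptor gene, changed by −0.77 ± 0.11, and Adamts4, a protease gene, by −0.68 ± 0.078. Of 14 astrocyte markers 3 fell and 1 rose (17.1% of all genes tested were called). Their median was 0.0063, with 8 positive and 6 negative values, and 6 had the same sign in both genotypes. The transcription factor Sox9 changed most (−0.72 ± 0.10).

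**Figure D3:**
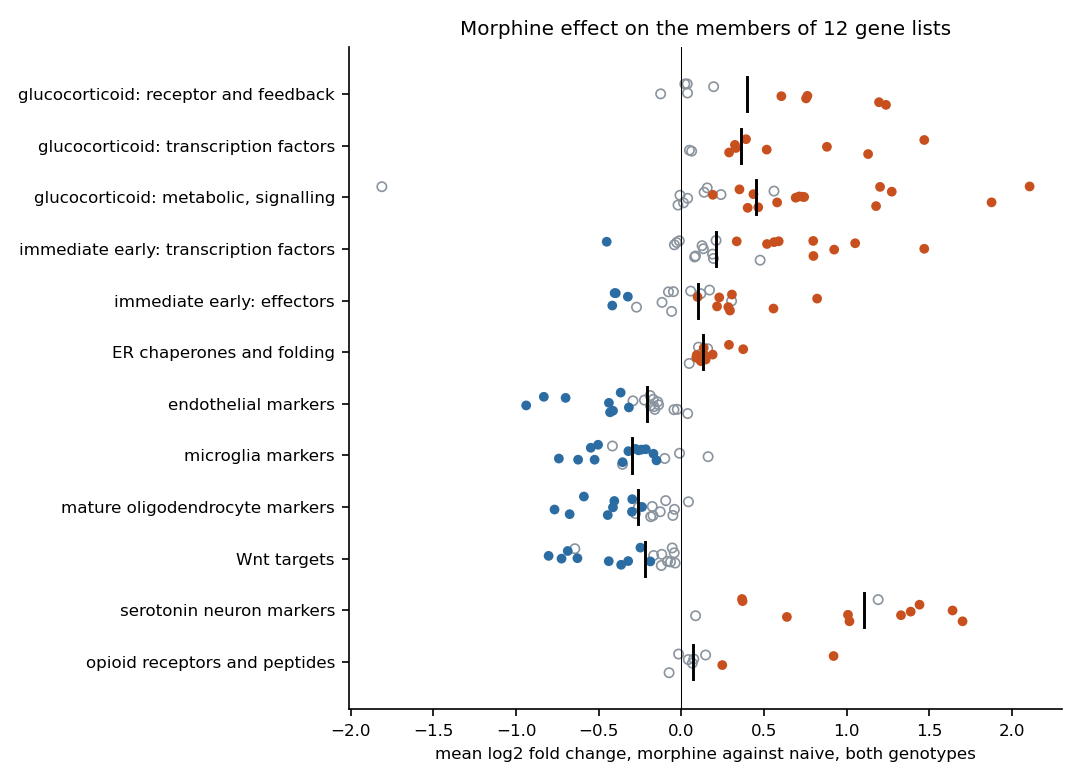
Mean log2 fold change of morphine over both genotypes (x axis) for each tested member of 12 gene lists; filled points were called, open points were not, vertical position within a list is spread for legibility, and black bars are list medians. Glucocorticoid lists lie to the right with medians near 0.4, and microglia, endothelial and Wnt target lists to the left.

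Wnt signalling, in which secreted ligands stabilise beta-catenin and so activate target genes that include the pathway's own inhibitors, was tested because the series names it. Of 82 tested genes in 3 lists, 5 rose (9.02% of all genes tested did) and 20 fell (8.03%). Among 26 intracellular members 9 were called, but 5 when any 1 of 3 libraries was left out (wild-type naive 3, knockout-labelled naive 1, wild-type morphine 2). Among 42 ligands, receptors and modulators 9 were called, but 3 with counts reduced to the smallest total. All 9 called genes among 18 transcriptional targets were lower. Rnf43, a ubiquitin ligase that removes Wnt receptors, was at 3.82 to 4.72 CPM (median 4.25) in naive and 1.85 to 3.76 CPM (median 2.29) in morphine libraries, a log2 fold change of −0.80 ± 0.089 (SE), adjusted p = 1.14e-05, without overlap. Jag1, a target that also encodes a Notch ligand, changed by −0.72 ± 0.071 without overlap, and Nkd1, an inhibitor acting inside the cell, by −0.44 ± 0.063. Axin2 and Lef1, named after their values were seen, fell at −0.36 ± 0.11 (adjusted p = 0.0436) and −0.69 ± 0.22 (adjusted p = 0.048). Among ligands and receptors Wnt7a (−0.42 ± 0.082) and Fzd5 (−0.69 ± 0.13) fell while Fzd2 (0.69 ± 0.093) and Fzd4 (0.32 ± 0.065) rose. With the serotonin marker level in the model 2 targets were called, Rnf43 and Jag1. The Notch list gave 2 higher (9.02% of all genes tested were) and 5 lower (8.03%) of 16. The target genes Heyl (−0.64 ± 0.062) and Hes5 (−0.54 ± 0.16) were among the lower.

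Markers of serotonin, cholinergic and catecholamine neurons were among the genes with the largest rises, and their levels scattered widely between libraries. Serotonin neurons lie in the raphe nuclei beside the periaqueductal gray, and whether the position of the punches differed between the groups was not tested. Serotonin neuron markers were higher in 10 of 12 (9.02% of all genes tested were), with a median of 1.1. None was called in wild type alone and 10 were called in the libraries labelled knockout. Tph2, the serotonin-producing hydroxylase of brain, stood at 13.7 to 262 CPM (median 64.9) in naive and 154 to 568 CPM (median 233) in morphine libraries, a log2 fold change of 1.70 ± 0.47 (SE), adjusted p = 0.0255. The ranges overlapped widely, and Tph2 and the serotonin transporter gene Slc6a4 each lost the call when any 1 of 4 libraries was left out. The summed level of the 12 genes ran from 282 to 942 CPM in wild-type naive, 182 to 425 in knockout-labelled naive, 755 to 976 in wild-type morphine and 619 to 1828 in knockout-labelled morphine libraries. The vesicular glutamate transporter gene Slc17a8, expressed in part of these neurons, changed by 2.35 ± 0.45.

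Calls among cholinergic genes depended on single libraries. Chat, the acetylcholine-producing enzyme, ran from 0.415 to 4.54 CPM (median 1.77) in naive libraries and from 1.27 to 18.7 CPM (median 8.35) in morphine libraries (1.99 ± 0.60), and 3 of 4 cholinergic genes were called, but 0 when any 1 of 10 libraries was left out (wild-type naive 2 or 3, knockout-labelled naive 1, 2 or 4, wild-type morphine 2 or 4, knockout-labelled morphine 2, 3 or 4). Of 5 catecholamine genes 3 were called, but 1 when any 1 of 8 libraries was left out (wild-type naive 2 or 3, knockout-labelled naive 2 or 4, morphine 2 or 4 of either genotype) and 5 without knockout-labelled morphine library 1. Th, the first enzyme of catecholamine synthesis, changed by 0.52 ± 0.16 and lost its call in 11 of 16 fits that left out 1 library. Dbh, which makes noradrenaline, was at a median of 0.0854 CPM in naive and 0.136 CPM in morphine libraries, reaching 17.0 in 1 knockout-labelled morphine library, and lost its call in 14 of 16 fits that left out 1 library. What these markers, which moved with treatment, contribute to the results above was not tested apart from the model with the serotonin marker level. In that model 439 shared genes (14.5%) stayed called and the others did not. Cdkn1a (log2 fold change 1.98), Fkbp5 (1.27), Fosb (1.65), Sall1 (−0.66) and Cldn5 (−0.81) were among those that stayed.

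**Figure D4:**
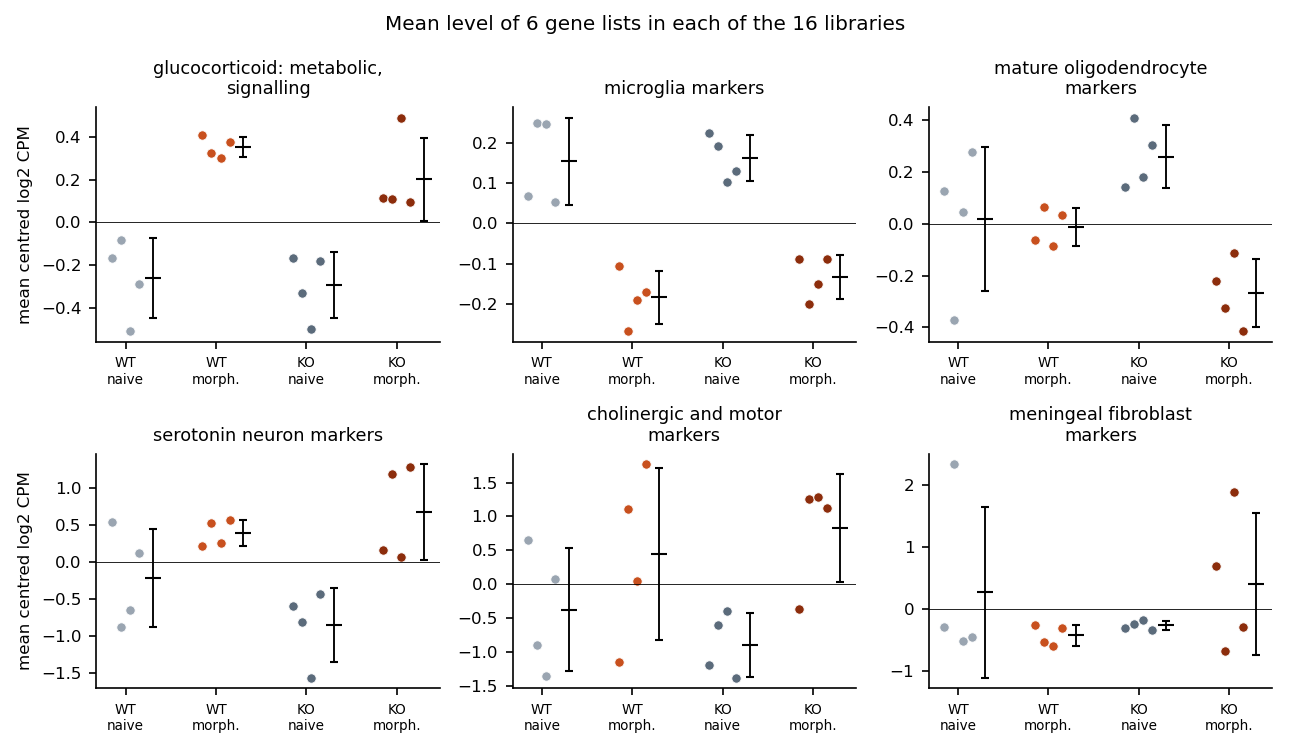
Mean log2 CPM, centred on each gene's mean, of 6 gene lists (y axis) in each library by group, with bars for the mean and SD of 4 libraries. The glucocorticoid and microglia lists separate all naive from all morphine libraries, the serotonin and cholinergic lists do so only in part, and the meningeal list is highest in wild-type naive library 2 (2.34) and knockout-labelled morphine libraries 3 (1.89) and 1 (0.70), against −0.17 or lower elsewhere.

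Tnfsf10, the death receptor ligand TRAIL, had the largest fall among the named genes. Tnfsf10 stood at 2.48 to 4.08 CPM (median 3.01) in naive and 0.476 to 1.68 CPM (median 1.13) in morphine libraries, a log2 fold change of −1.45 ± 0.16 (SE), adjusted p = 1.51e-05, without overlap, while only 1 other gene of 15 interferon-induced genes was called. Foxb1, a forkhead factor of the mammillary region, changed by −1.29 ± 0.19, and Gli1, a target of hedgehog signalling, by −0.80 ± 0.11. Neither Foxb1 nor Gli1 was called with the serotonin marker level in the model, at −0.79 and −0.66. Adamtsl4 and Cdc42ep1 fell by 0.84 ± 0.08 and 0.86 ± 0.078 on the log2 scale, without overlap. Slc45a3 changed by −0.28 in wild type and −1.32 in libraries labelled knockout, a difference with an unadjusted p of 0.00048 that did not pass adjustment in edgeR. Among risen genes Tma16, named after its values were seen, changed by 1.12 ± 0.068 without overlap.

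The shared genes with the highest level per kilobase of exon changed little. Eef1a1, a translation elongation factor gene, changed by 0.12 ± 0.023, Calm2, a calmodulin gene, by 0.082 ± 0.02, and Nap1l5 by 0.16 ± 0.032, while the kinesin gene Kif5a changed by −0.19 ± 0.036 and Actb, cytoplasmic actin, by −0.12 ± 0.04. Actb lost its call in 11 of the 16 fits that left out 1 library. With the serotonin marker level in the model none of these named genes was called. Calm2 was also not called with counts reduced to the smallest total. Shared genes had a median exon length of 4780 bases against 3922.5 for all genes tested, and a median of 37.3 CPM against 15.7.

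Several of the remaining lists held few called genes. With the serotonin marker level in the model 0 sterol synthesis genes and 0 neuropeptide precursors were called. Of 19 sterol synthesis genes 5 rose (against 9.02% of all genes tested) and 0 fell, with Fdft1, squalene synthase, at 0.17 ± 0.029 without overlap. Neuropeptide precursors rose in 4 of 15 (against 9.02% of all genes tested), Npy by 0.54 ± 0.13, Sst by 0.28 ± 0.069 and Nts by 0.33 ± 0.07. In that model Fdft1 was at 0.097, Npy at 0.46, Sst at 0.014 and Nts at 0.22 on the log2 scale. Slc2a1, the glucose transporter of the blood-brain barrier, rose (0.44 ± 0.072) but was not called in that model (0.39). Growth arrest genes were mixed: of 19, 6 rose (against 9.02% of all genes tested) and 2 fell (8.03%). Their median log2 fold change was −0.016, with 8 positive and 11 negative values, and 12 had the same sign in both genotypes. In the model with the serotonin marker level 4 rose and 0 fell. Among the risen, Trp53inp1 (0.55 ± 0.052) and Sesn1 (0.29 ± 0.035) did not overlap between treatments. Glutamate receptors and scaffolds gave 3 higher and 3 lower of 25, the genes of inhibitory synapses 2 higher of 18 and potassium channels 1 higher and 2 lower of 21. Among all genes tested 17.1% were called in either direction, and nothing is read from these 3 counts.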

How the data were processed

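The authors deposited 1 table of HTSeq counts per library, whole read counts per gene, for polyA RNA of 16 libraries made with TruSeq RNA v2, per the labels' protocols. HTSeq, limma and the build mm10 are named in the submitters' processing notes; the sources used here give no aligner, annotation release or strand setting. The kit does not mark strand, so overlapping antisense genes cannot be told apart. Rows of the HTSeq tally held 38.2% to 40.6% of each table and were dropped. The 37 mitochondrially encoded genes are listed at 0 in all libraries.

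Genes passing filterByExpr (minimum count 10) were fitted with edgeR 4.0.16 (R 4.3.3): TMM scaling, 1 coefficient per group over all 16 libraries, robust quasi-likelihood test, contrast the mean of both morphine effects, Benjamini-Hochberg adjusted p under 0.05 over 18111 genes. Levels are TMM-scaled CPM, and fold changes morphine against naive. The code was tested on simulated data. No 2 libraries agreed within sampling noise. Alternatives used DESeq2 1.42.0, limma-voom (limma 3.58.1), other filters, an additive model, a replicate block, left-out libraries, thinned counts and a serotonin marker covariate.

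Members and the 41 gene lists were chosen with earlier results of these data known. Named genes are, among shared genes with mean log2 CPM of at least 1, the 15 largest changes each way, the 6 highest per kilobase each way, up to 5 called members per list by p, opioid and RGS genes with Nr3c1, and the 3 opposite-sign genes of smallest p; the text uses a part of these and marks others.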

Additional observations from a re-analysis of the deposited data

Results flagged for a closer look

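In 9 of 188 groups of 4 libraries checked over 47 genes, 1 library stood apart from its group by Dixon's criterion, its gap to the nearest library set against the group's range; chance gives about 1 in 20. Cldn5 was 7.31 CPM in wild-type morphine library 4, below 3 close values. Sox10 was 52.3 CPM in wild-type naive library 2, and Trim59 was 18.1 CPM in the same library. Trim59 was 18.9 CPM in knockout-labelled morphine library 1, where Erbb3 was 24.4 CPM and Usp2 33.2 CPM. Erbb3 was 35.8 CPM in knockout-labelled naive library 2. Tma16 was 25.7 CPM in wild-type morphine library 3, and Usp2, chosen after its values were seen, was 25.9 CPM in wild-type naive library 1.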

How the results depend on the processing

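The count of genes called for the mean effect, 3089, stayed within 1.5 times under every alternative except 2: 1925 with counts thinned to the smallest total (1905 of one sign) and 499 with the serotonin marker score as a covariate (499 of one sign). Leaving out 1 library gave 2399 to 3302 calls, and 2382 to 3227 of one sign in both genotypes. Wild type alone gave 378 to 1252 calls with 1 library left out, 512 with the replicate block and 1242 with DESeq2, and the libraries labelled knockout gave 1037 to 2260. The interaction gave 107 calls with DESeq2. With a replicate block the mean effect gave 2759 calls; the replicate numbers do not pair the libraries, since correlations of same-numbered deviations ran from −0.44 to 0.30. Without wild-type naive library 2 and knockout-labelled morphine library 2, a choice made after seeing the data, 2318 were called. Directions turned for 4 named genes: Tph2 (−0.024) and Slc6a4 (−0.047) with the serotonin covariate; Oprm1 (−0.063 to 0.012 with 1 library left out, 0.029 without wild-type naive 2 and knockout-labelled morphine 3, 0.076 with the covariate); and Rgs20 (−0.041 to 0.0099 with 1 library left out, 0.015 with the covariate). Tph2 and Slc6a4 are members of the list that gives the serotonin score, so the covariate takes out their change by construction. For Oprm1 and Rgs20 the cause was not tested. Thinning uses fewer reads, and the covariate differs between the treatments. Depth limits Dbh, at medians of 0.0854 and 0.136 CPM.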
